A study of Mus musculus with 9 samples.

Results

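The oocyte transcription factors described here are 9 genes that build or mark the egg: Nobox, Figla, Lhx8, Sohlh1, Sohlh2, Taf4b, Tbpl2, Foxo3 and Pou5f1. They were picked by gene name, and all 9 were found among the 30153 genes of the deposited tables. The RNA came from pooled oocytes of the mouse at metaphase II (MII), the ovulated eggs that wait at the second meiotic division for fertilisation. Donor females were 4 weeks old, of mixed genetic background and of the genotype Sycp3CreERT2/+; Rosa26nT-nG/+. CreERT2 is a Cre recombinase that needs tamoxifen to act, here placed at the meiotic gene Sycp3, and nT-nG is a reporter at Rosa26 that switches from nuclear tdTomato to nuclear GFP once Cre has acted on it. All 3 groups share this genotype, so the comparison is between eggs of different reporter colour and not between genotypes, and the timing of tamoxifen was not used here. The females received 5 IU of PMSG, a hormone that makes follicles grow, then 5 IU of hCG 48 h later to trigger ovulation. Eggs were taken 13 h after hCG, cleared of cumulus with hyaluronidase and sorted manually by fluorescence. There were 3 libraries each of GFP High (pools of 15, 15 and 16 eggs), GFP Low (49, 52 and 57 eggs) and RFP (87, 88 and 100 eggs), and the pool sizes were not tied to single libraries. No label says whether the 3 pools of a group came from separate animals, so p-values measure the spread between pools.

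These factors act at different steps of an egg's life. SOHLH1 and SOHLH2, both basic helix-loop-helix (bHLH) proteins, the homeodomain protein NOBOX, the LIM-homeodomain protein LHX8 and the bHLH protein FIGLA switch on the oocyte programme in the newborn ovary, including the genes of the zona pellucida coat. FOXO3, a forkhead protein held in check by PI3K and AKT signalling, keeps primordial follicles dormant. TBPL2 (also called TBP2 or TRF3) replaces the TATA-binding protein TBP on promoters of the growing oocyte, and TAF4B is a germ-cell form of the TFIID subunit TAF4. POU5F1 (OCT4) is a pluripotency factor that the egg stores for the embryo. Transcription is silent at MII, so these levels are of stored messages. The libraries were read on poly-A RNA, so all levels, ranks and ratios are of messages captured by their tails. Tail length was not measured.

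All 9 libraries carried the egg's own markers, and the totals were similar, at 19381677 to 27746256 counts per library. Each of 12 oocyte markers had more than 3 counts, the limit of detection used here, in all 9 libraries, and their summed level was 9535 to 10984 CPM (counts scaled to equal library size, with TMM factors over the 9 libraries). Of 16 cumulus and granulosa cell markers, 2 were above 3 counts in all 9 libraries, and the list summed to 11.3 to 50.1 CPM in the GFP High pools, 15.2 to 44.4 in the GFP Low pools and 18.5 to 61.3 in the RFP pools. Cyp19a1, aromatase, was the highest of them at 12.3 CPM on average, and Amh was at 0 in every library but GFP Low 3, which had 8 counts. In pooled cells, fewer contaminating cells and less RNA per cell cannot be told apart. Tnfaip6, Inha and Has2, genes of expanding cumulus or granulosa cells, were at 0 in some pools. They reached 249 (RFP 2), 144 (RFP 2) and 24 counts (GFP High 3) in others. The cumulus list summed highest in GFP High 1 (50.1 CPM), GFP Low 1 (44.4) and RFP 2 (61.3), against 11.3 to 27.5 in the other pools. Of 9 oviduct, blood and stroma markers, Pecam1 made up most of the 39.6 to 59.4 CPM, and Epcam reached 50 counts. Pdgfra averaged 0.401 CPM over the GFP High pools, 1.85 over GFP Low and 2.13 over RFP. Over the 9 libraries Pecam1 was at 37.3 to 57.8 CPM and Cyp19a1 at 6.85 to 18.1 CPM. Whether the egg itself stores these 2 messages was not tested. Each comparison tested 9 of the 16 cumulus and granulosa markers and 3 of the 9 oviduct, blood and stroma markers. None of the tested markers was called, but only 0.0197% or less of all genes were called in any comparison. The lack of calls therefore cannot show that contamination was equal between the groups. The reporter RNAs followed the labels: eGFP was at 35.8 to 43.8 CPM in the GFP High pools, 14.5 to 23.9 in the GFP Low pools and 0 to 0.594 in the RFP pools, while tdTomato was at 0 to 0.0895, 0.767 to 1.26 and 1.71 to 3.57 CPM.

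The stored messages of the 9 factors spanned about 3 orders of magnitude when scaled by gene length. Nobox stood first at 209.2 ± 19.3 CPM per kilobase (mean ± SD over 9 libraries), which placed it at rank 200 of 30153 genes, in the top 0.663%. Pou5f1 (109.9 ± 7.87) and Foxo3 (107.7 ± 10.3) followed at ranks 442 and 453. Lhx8 was at 76.8 ± 5.41, Figla at 23.1 ± 3.48 and Tbpl2 at 14.7 ± 1.96 CPM per kilobase. Taf4b was lower, at 3.78 ± 0.919, then came Sohlh2 at 1.09 ± 0.759 and Sohlh1 at 0.194 ± 0.239. Each neighbour in this order stood higher than the next in 9 of 9 libraries with ranges that did not overlap, except for 2 pairs. Pou5f1 exceeded Foxo3 in 6 of 9 libraries and Sohlh2 exceeded Sohlh1 in 8 of 9, and in both pairs the ranges over libraries overlapped. Nobox held 38.2% of the summed length-scaled level of the 9 genes, and Nobox, Pou5f1, Foxo3 and Lhx8 were all within the top 2.27% of genes. With the length of the principal coding transcript in place of the deposited gene length, Pou5f1 moved to 181.5, Foxo3 to 119.1 and Lhx8 to 112.5 CPM per kilobase, and the order of the 9 stayed as it was.

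**Figure D1:**
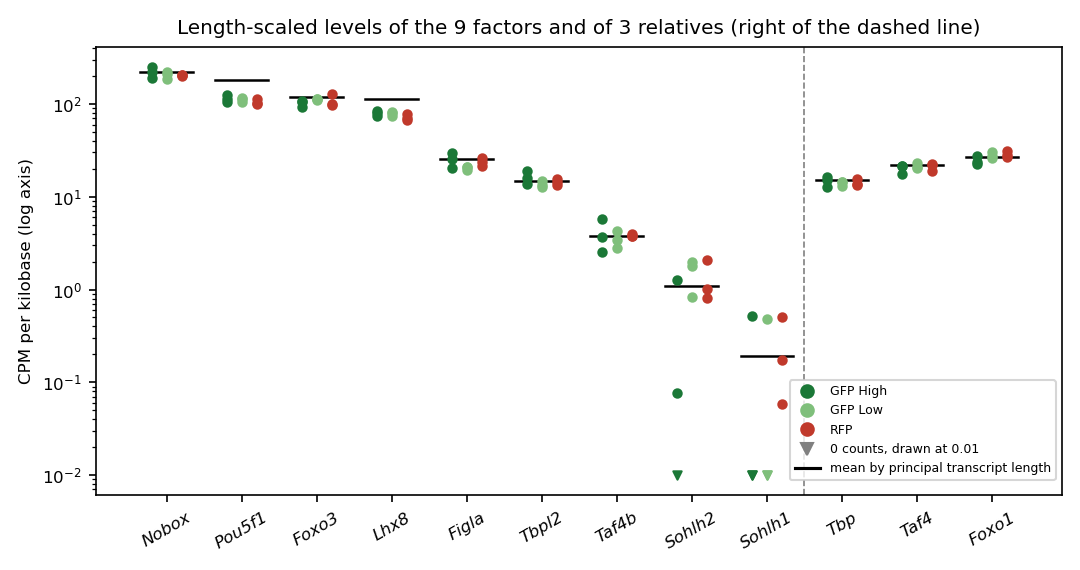
Length-scaled level (CPM per kilobase of deposited gene length, log axis) of the 9 factors and, right of the dashed line, of the relatives Tbp, Taf4 and Foxo1; each point is 1 library, coloured by group, triangles mark 0 counts, and black lines are means by principal transcript length. Nobox lies highest at 209.2 on average and Sohlh1 lowest at 0.194, and the 3 groups lie on top of each other for most genes.

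Among the homeodomain factors, Nobox (ENSMUSG00000029736; GRCm38, chromosome 6, 43303674 to 43309554, minus strand) was read at 499, 447 and 380.1 CPM in GFP High pools 1 to 3, 373, 422 and 447 in the GFP Low pools and 409.3, 400.7 and 409.7 in the RFP pools, each in the order of their numbers as for all factors. The RFP pools fell between the extremes of both other groups, so the groups overlapped. The coefficient of variation (SD over mean) was 1.25% in RFP, 9.16% in GFP Low and 13.5% in GFP High. Lhx8 (ENSMUSG00000096225; chromosome 3, 154306294 to 154330659, minus strand) was at 201.0, 213 and 188 CPM in the GFP High pools, 190.1, 207 and 201.0 in the GFP Low pools and 178, 171 and 199.6 in the RFP pools. RFP 1 and RFP 2 were the lowest pools, and RFP 3 lay within the range of the other groups.

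Of the bHLH factors, Figla was well above the Sohlh genes. Figla (ENSMUSG00000030001; chromosome 6, 86016171 to 86020996, plus strand), which directs the zona pellucida genes, was at 21.4, 25.1 and 17.0 CPM in the GFP High pools, 17.5, 17.4 and 16.1 in the GFP Low pools and 19.8, 21.7 and 17.9 in the RFP pools. Every GFP Low pool lay below every RFP pool, while GFP High overlapped both. Sohlh2 (ENSMUSG00000027794; chromosome 3, 55182028 to 55209957, plus strand) had 5, 0 and 67 counts in the GFP High pools, 82, 51 and 128 in the GFP Low pools and 129, 54 and 51 in the RFP pools. In CPM these were 0.182, 0 and 3.00, then 4.21, 1.96 and 4.62, then 4.90, 2.37 and 1.89. GFP High 1 and GFP High 2 were below every other pool, and GFP High 3 lay within the range of the other groups. Sohlh1 (ENSMUSG00000059625; chromosome 2, 25842995 to 25847248, minus strand) had 0, 0 and 15 counts in the GFP High pools, 12, 0 and 0 in the GFP Low pools and 2, 15 and 6 in the RFP pools, so it passed 3 counts in 4 of 9 libraries, at least 1 in each group. A count of 0 allows up to 3 counts, or 0.108 to 0.154 CPM depending on the library, for counting error alone.

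The absence of Sohlh2 from a GFP High pool was set beside other genes of its level. Of 1506 genes at 2 to 4 CPM on average in the other 8 libraries, 13.9% had 3 counts or fewer in GFP High 2, and the same share was 2.11% in GFP High 1 and 1.99% in GFP High 3. It was 0 to 0.328% in the 6 GFP Low and RFP libraries. The GFP High pools were also the smallest, with 15 or 16 eggs, and the part of pool size in the Sohlh2 counts was not tested.

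Of the general transcription machinery forms, Tbpl2 (ENSMUSG00000061809; chromosome 2, 24071721 to 24096595, minus strand) was at 22.1, 26.3 and 18.7 CPM in the GFP High pools, 18.3, 17.6 and 20.2 in the GFP Low pools and 19.9, 18.2 and 21.2 in the RFP pools. GFP High 2 was the highest pool and the groups overlapped. Taf4b (ENSMUSG00000054321; chromosome 18, 14783245 to 14900359, plus strand) was at 13.2, 18.97 and 29.6 CPM in the GFP High pools, 17.7, 21.9 and 14.4 in the GFP Low pools and 19.4, 20.4 and 19.6 in the RFP pools. GFP High held both the lowest and the highest pool, with a coefficient of variation of 40.5% against 2.70% in RFP.

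Foxo3 (ENSMUSG00000048756; chromosome 10, 42181841 to 42276755, minus strand), the dormancy factor, was at 824, 696 and 789 CPM in the GFP High pools, 857, 845 and 866 in the GFP Low pools and 741, 759.9 and 959 in the RFP pools. All GFP High pools lay below all GFP Low pools, and RFP, with pools on both sides of GFP Low, overlapped each of them. Pou5f1 (ENSMUSG00000024406; chromosome 17, 35506018 to 35510772, plus strand) was at 252, 239 and 281 CPM in the GFP High pools, 235, 261 and 252 in the GFP Low pools and 251, 229.6 and 223 in the RFP pools, with overlap between all groups. Exons of the antisense gene Gm19553 overlap those of Pou5f1, and no source used here says whether the counting used strand, so reads of the pair may not be told apart. Within GENCODE M21, no other transcript matched any of the 9 genes at 90% identity or more over 200 bases.

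**Figure D2:**
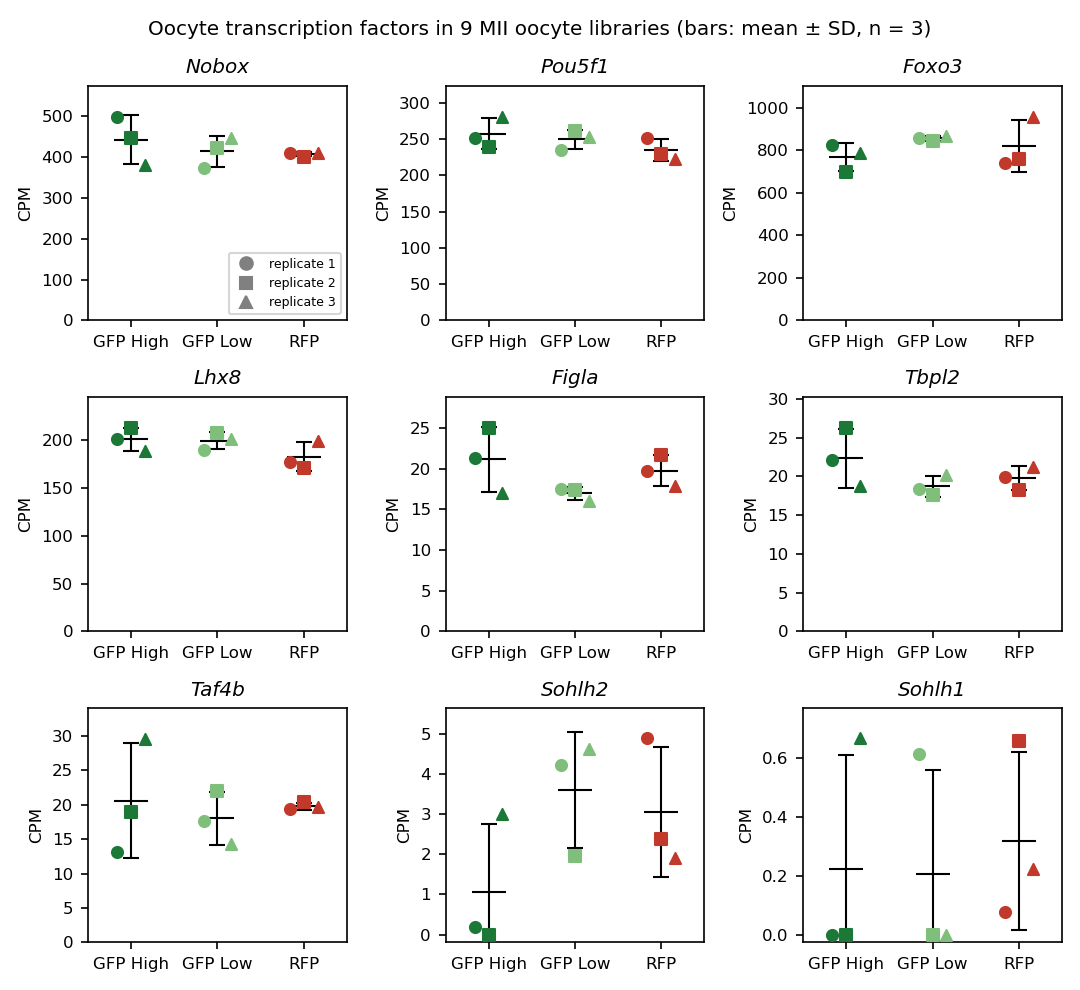
CPM of each factor in every library, by group, with marker shape for the replicate number and bars for the group mean ± SD (n = 3); every axis starts at or just below 0. Groups overlap for most genes: GFP Low lies below RFP for Figla, GFP High lies below GFP Low for Foxo3, and GFP High 1 and 2 lie lowest for Sohlh2.

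No factor was called different between any pair of groups. In GFP High against RFP, edgeR's quasi-likelihood test with Benjamini-Hochberg adjustment called 0 of the 8 factors tested, where it called 0.0135% of 14829 genes. Sohlh1 was too low for the filter on counts and was not tested in pairs. None of the 8 reached an unadjusted p of 0.05, which 4.09% of all genes did. Of the 8, 6 had a log2 fold change above 0, against 49.3% of all genes, and their median was 0.12, against -0.01 over all genes. The smallest unadjusted p values belonged to Pou5f1 (log2 fold change 0.15, SE 0.10, 95% interval -0.08 to 0.37) and Lhx8 (0.15, SE 0.10, interval -0.08 to 0.38), and every edgeR adjusted p was 0.997 or higher. No factor had groups that did not overlap, which was so for 11.8% of all genes.

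GFP Low against RFP gave the same count of 0 called factors of 8 by edgeR, where 0.0197% of 15199 genes were called. None was under an unadjusted p of 0.05, against 2.62% of all genes. The log2 fold change was above 0 for 5 of 8, against 48.9% of all genes, with a median of 0.05 against -0.00. Figla, at 19.8 ± 1.88 CPM in the RFP pools and 17.0 ± 0.791 in the GFP Low pools (mean ± SD, n = 3), had a log2 fold change of -0.21 (SE 0.14, interval -0.53 to 0.10, edgeR adjusted p = 1.000). It was the 1 factor of 8 whose groups did not overlap, and 7.68% of all genes had such groups. Lhx8 had the smallest unadjusted p, at a log2 fold change of 0.13 (SE 0.09).

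GFP High against GFP Low likewise had 0 of 8 factors called by edgeR, where 0% of 14785 genes were called, and 0 under an unadjusted p of 0.05, against 3.77% of all genes. Of the 8, 6 were above 0 against 49.4% of all genes, and the median log2 fold change was 0.08 against -0.00. Foxo3 had the smallest p: it stood at 770.0 ± 66.1 CPM in the GFP High pools and 855.8 ± 10.6 in those of GFP Low (mean ± SD, n = 3), or -0.14 as a log2 fold change (SE 0.08, interval -0.31 to 0.03, edgeR adjusted p = 0.998). It was the 1 factor of 8 without overlap, as were 11.5% of all genes. DESeq2, run on the same counts, also called 0 factors in each of the 3 comparisons, and the lowest adjusted p of any factor in the authors' deposited table is 0.817, for Lhx8 in GFP High against RFP. The 3 comparisons share libraries and are not independent of each other.

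The intervals bound the size of a difference that these pools could hide. For Nobox, Lhx8, Foxo3 and Pou5f1 in GFP High against RFP, the 95% interval of the fold ran from 0.934 to 1.29, 0.947 to 1.30, 0.799 to 1.13 and 0.948 to 1.29. For Figla, Tbpl2 and Taf4b it was wider, at 0.776 to 1.51, 0.834 to 1.57 and 0.680 to 1.62. For Sohlh2, at 1.06 ± 1.68 CPM in the GFP High pools and 3.06 ± 1.62 in the RFP pools (mean ± SD, n = 3), the fold of 0.3497 had an interval of 0.0442 to 2.77, which holds both a many-fold lower level and a higher one. The Sohlh2 value also rested on the method and on single pools. In GFP High against RFP it was -3.70 in log2 fold change with limma-voom (unadjusted p = 0.0394, adjusted p = 0.768). With a replicate block in edgeR it was -3.71. Without GFP High 3 the log2 fold change went from -1.52 to -4.96 against RFP (edgeR adjusted p = 0.384) and from -1.76 to -5.20 against GFP Low (adjusted p = 0.449), and without GFP High 2, the pool with most absent low-level genes, these values were -0.94 and -1.18. A single test of any difference among the 3 groups, in which Sohlh1 could enter, gave edgeR adjusted p = 1.000 for all 9 factors, where 0.0126% of 15857 genes were called. None of the 9 was under an unadjusted p of 0.05, as were 4.65% of all genes.

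**Figure D3:**
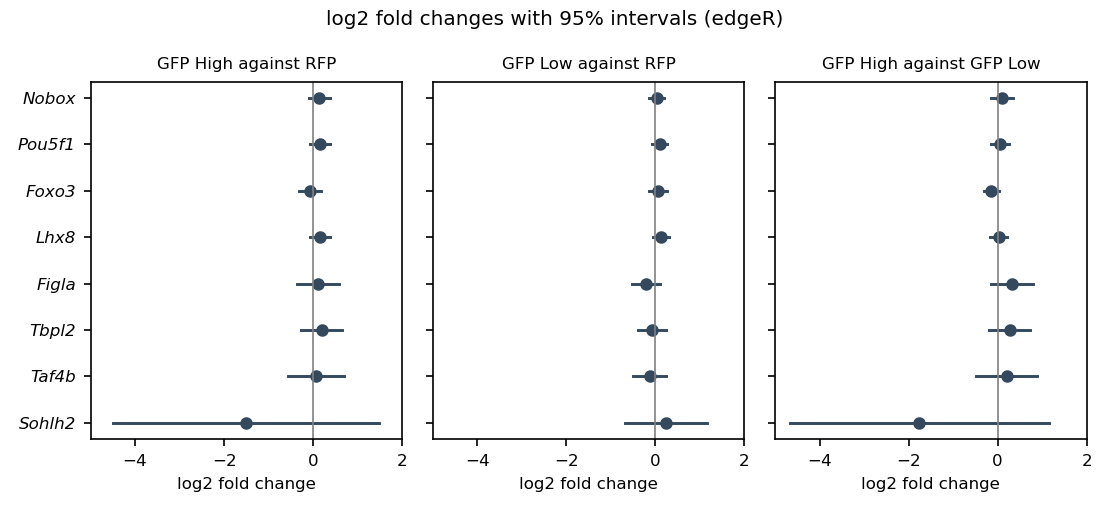
Log2 fold change of the 8 tested factors in the 3 comparisons (points) with 95% intervals from edgeR (lines); the vertical line marks no difference. Every interval crosses 0, and that of Sohlh2 in GFP High against RFP is the widest of its panel, from -4.50 to 1.47.

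The spread of the factors from pool to pool was set beside that of all genes. Among the 7 factors at 5 CPM or more, 5 had their largest coefficient of variation in GFP High, and so did 64.1% of 9243 genes at that level. The highest of the 9 pools was a GFP High pool for 6 of 7 factors, against 51.3% of those genes, and the lowest was one for 2 of 7, against 58.3%. Genes at 10 to 40 CPM, the range of Figla, Tbpl2 and Taf4b, had a median coefficient of variation of 23.1% in the GFP High pools, 12.1% in the GFP Low pools and 12.3% in the RFP pools. Taf4b stood above these medians in GFP High (40.5%) and GFP Low (21.1%) and below in RFP (2.70%). At 150 to 1000 CPM, the range of Nobox, Lhx8, Foxo3 and Pou5f1, the medians were 8.59%, 5.27% and 7.22% in the same order of groups. Foxo3 and Lhx8 were the factors with their largest spread in RFP, at 14.7% and 8.08%, against 8.58% and 6.21% in GFP High.

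Pools that were high for one factor were not high for all. GFP High 2 was the highest pool for Figla, Lhx8 and Tbpl2 and the lowest for Foxo3. GFP High 3 was the highest for Taf4b and Pou5f1, while GFP High 1 was the highest for Nobox and the lowest for Taf4b. RFP 3 was the highest for Foxo3 and the lowest for Pou5f1.

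**Figure D4:**
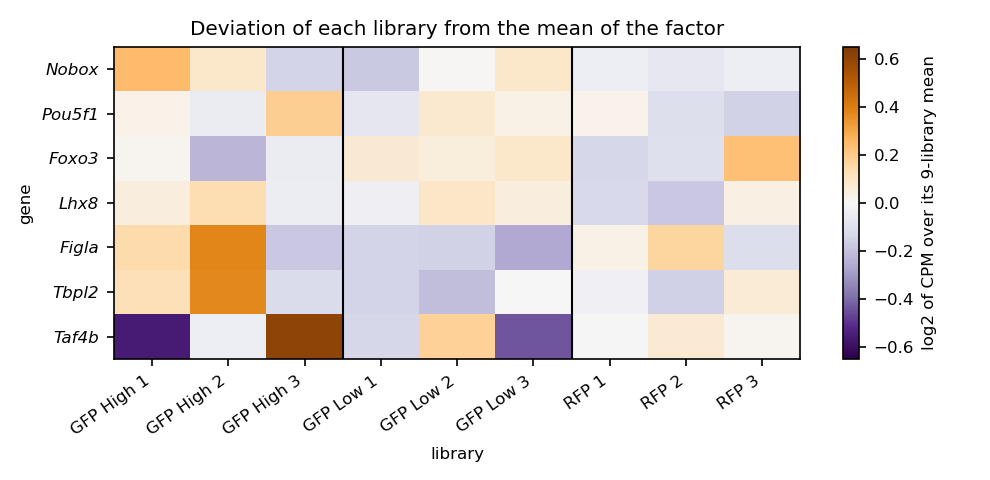
Deviation of each library from the 9-library mean of each factor at 5 CPM or more (colour, log2 of CPM over the mean; orange higher, purple lower), with black lines between groups. Taf4b in GFP High 1 and GFP High 3, at 13.2 and 29.6 CPM, gives the strongest colours, and no group has 1 colour throughout.

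The genes whose levels followed a factor most closely over the 9 libraries were named as a description, by Pearson's r of log2 CPM among 9242 genes. The points share libraries and depth, and the highest of 9242 values over only 9 libraries can be large through selection alone. Whether the genes named are linked to the factors was not tested. Nobox was closest to Gstp1, a glutathione S-transferase (r = 0.967), and Rbm3, a cold-inducible RNA-binding protein (r = 0.948). Foxo3 was closest to Arid1b, a chromatin remodelling subunit (r = 0.956), and Uhrf1, which helps maintain DNA methylation (r = 0.943). Tbpl2 was closest to the exportin gene Xpo6 (r = 0.962) and the pseudogene Rpl7a-ps11 (r = 0.941). Pou5f1 was closest to Fancl (r = 0.954) and the histone demethylase gene Kdm4a (r = 0.926), and Taf4b was close to Zfp58 (r = 0.933). Lhx8 was closest to Gys1, glycogen synthase (r = 0.938), and Ptpn23 (r = 0.922), and Figla to 1190002N15Rik (r = 0.930) and Hsbp1 (r = 0.930).

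The oocyte forms were set against their widely expressed relatives within each library, so that scaling between libraries cancels. The length-scaled Tbpl2 to Tbp ratio lay between 0.877 and 1.26 in all 9 pools, and an exact permutation test on the F statistic gave p = 0.461 for a difference among the groups. The Taf4b to Taf4 ratio was 0.118 to 0.267 (exact permutation p = 0.779), so the widely expressed Taf4 had more poly-A reads per length in every pool. Foxo3 exceeded Foxo1 by 3.50 to 4.57 times in every pool (exact permutation p = 0.436). Adjusted over the 3 ratios, the exact permutation p values were 0.691, 0.779 and 0.691, and 1680 assignments could give no p below 0.00357. The Tbp ratio depends on the length used, since the deposited gene length of Tbp is 13576 bp and its coding transcripts run from 639 to 12794 bp.

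Most partners and paralogs of these factors were also present as messages in the egg. Of 23 found, Taf7 (a TFIID subunit), Taf3 (another TFIID subunit) and Gtf2b (TFIIB) had the highest length-scaled levels, at 120.9, 101.2 and 86.8 CPM per kilobase. None was called in any comparison, with 19, 20 and 18 tested in the order given above. Under an unadjusted p of 0.05, 0 were higher and 2 were lower in both comparisons of GFP High, where 4.09% (against RFP) and 3.77% (against GFP Low) of all genes were under it in either direction. None was under it when GFP Low was set against RFP. Gtf2a1, which encodes large subunits of TFIIA, the partner of TBPL2 in the oocyte, was at 198, 165 and 197 CPM in the GFP High pools, 225, 237 and 217 in the GFP Low pools and 234, 235 and 251 in the RFP pools. All 3 GFP High pools lay below the other 6. Its log2 fold change was -0.35 against RFP (SE 0.10, edgeR adjusted p = 0.997) and -0.27 against GFP Low (SE 0.10, adjusted p = 0.998). Taf3 was at 558, 529 and 631 CPM in the GFP High pools, 681, 732 and 648 in the GFP Low pools and 671, 643 and 724 in the RFP pools, again with all GFP High pools below the other 6 (log2 fold change -0.23, SE 0.09, edgeR adjusted p = 0.997 against RFP, and -0.25, SE 0.09, adjusted p = 0.998 against GFP Low). Gtf2a1 and Taf3 were named for the smallest unadjusted p of the list, and a lack of overlap goes with a small p. Against RFP, GFP High lay wholly below for 4 of 19 partners and wholly above for 0, beside 11.8% of all genes without overlap. Against GFP Low it lay wholly below for 3 of 18 and wholly above for 2, beside 11.5% of all genes. Over the whole list the median was -0.04 and -0.02 in the comparisons of GFP High with RFP and with GFP Low, and 0.01 for GFP Low over RFP. Sox2, which pairs with POU5F1 in pluripotent cells, was rare. It had 0, 0 and 4 counts in the GFP High pools, 40, 19 and 5 in the GFP Low pools and 13, 24 and 29 in the RFP pools. Sox2 is among the 4 partners with GFP High wholly below RFP. Low-level genes were more often at 3 counts or fewer in the GFP High pools, as given above. The part of this in the Sox2 counts was not tested.

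Genes that the factors are known to drive, or that the same growing oocyte makes, were abundant. They summed to 19144, 20128 and 18005 CPM in GFP High pools 1 to 3. The sums were 17621 to 18013 CPM in the GFP Low pools and 16785 to 18068 in the RFP pools. GFP High 3 thus lay within the range of the other groups. All 18 genes of this downstream list were tested in each comparison and none was called by edgeR. In GFP High against RFP, 13 of 18 had a log2 fold change above 0 (49.3% of all genes), 6 were higher and 0 lower at an unadjusted p under 0.05 (4.09% of all genes in either direction), and 7 had GFP High wholly above RFP, where 11.8% of all genes had groups that did not overlap in either direction. The median was 0.13 against -0.01 over all genes. In GFP High against GFP Low, 16 of 18 were above 0 (49.4% of all genes), with 5 higher and 0 lower at an unadjusted p under 0.05 (3.77% of all genes in either direction). GFP High lay wholly above GFP Low for 5 of the 18, where 11.5% of all genes did not overlap in either direction, and the median was 0.12 against -0.00. In GFP Low against RFP, 8 of 18 were above 0 (48.9% of all genes), none was under an unadjusted p of 0.05 in either direction (2.62% of all genes), and the median was -0.02.

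H1foo, the oocyte linker histone, was at 1615, 1975 and 1283 CPM in the GFP High pools, 1135, 1297 and 1126 in the GFP Low pools and 1170.5, 1237 and 1006 in the RFP pools. GFP High lay wholly above RFP (log2 fold change 0.53, SE 0.14, edgeR adjusted p = 0.997), and overlapped GFP Low (0.46, SE 0.13, adjusted p = 0.998). Oosp1, a secreted oocyte protein, was at 1363, 1573 and 1221 CPM in the GFP High pools, 1088, 1025 and 1110.0 in the GFP Low pools and 1188, 1244 and 872 in the RFP pools. GFP High lay wholly above GFP Low for Oosp1 (0.38, SE 0.09, edgeR adjusted p = 0.998). H1foo and Oosp1 were named for the smallest unadjusted p of the list as well as for level. A lack of overlap goes with a small p. Npm2, the egg's histone chaperone nucleoplasmin, had the highest length-scaled level of the list, at 1840.0 CPM per kilobase, and was 0.22 higher on the log2 scale in GFP High than in RFP (SE 0.09, edgeR adjusted p = 0.997).

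Of the 12 oocyte markers, 10 are also in the downstream list, so they are not a separate count, and none was called. Of the 12, 9 had a log2 fold change above 0 in GFP High against RFP (49.3% of all genes). In GFP High against GFP Low 11 did (49.4% of all genes), and the median was 0.12 in both comparisons. In GFP Low against RFP, 4 were above 0 (48.9% of all genes), with a median of -0.04. The medians over all genes were -0.0056, -0.0048 and -0.0041 in the same order, and 0.0135%, 0% and 0.0197% of all genes were called. Dppa3, a maternal protector of DNA methylation, and Padi6, of the egg's cytoplasmic lattices, were among the highest of them at 2107 and 795 CPM per kilobase. Mos, the kinase that holds the egg at MII, averaged 83.9 ± 7.39 CPM over the GFP High pools, 62.9 ± 1.88 over GFP Low and 70.1 ± 3.77 over RFP (mean ± SD, n = 3), which is 0.42 in log2 fold change for GFP High against GFP Low (SE 0.12, edgeR adjusted p = 0.998). Mos was named for its small unadjusted p among these markers, and such a choice favours large differences. The summed cumulus list, given above, overlapped between all 3 groups.

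**Figure D5:**
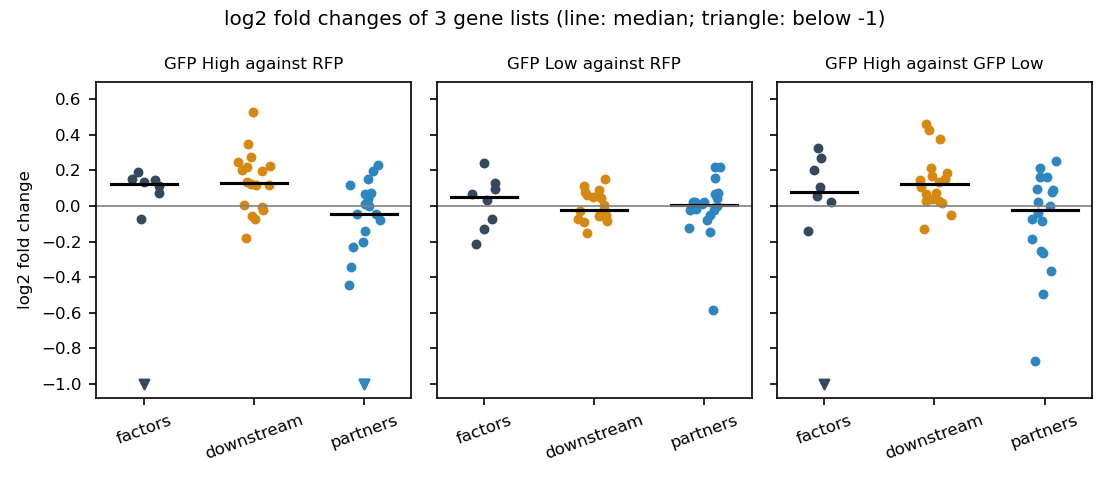
Log2 fold changes of the tested factors, of the downstream oocyte genes and of the partners and paralogs in the 3 comparisons; each point is 1 gene, lines are medians, and triangles mark genes below -1. The downstream genes lie mostly above 0 in both comparisons of GFP High, which share the GFP High pools. Their medians there are 0.13 and 0.12, and they lie around 0 in GFP Low against RFP.

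Other regulators of the oocyte and follicle did not pass the test in any comparison. Of 18 such genes, the highest by length-scaled level were Zfp57, which protects imprints (683 CPM per kilobase), Klf17, a zinc-finger factor of the egg and early embryo (177.8), and Ybx2, which binds stored messages (137.8). None of the 18 was called or was under an unadjusted edgeR p of 0.05 in any of the 3 comparisons. Of all genes, 4.09% (GFP High against RFP), 2.62% (GFP Low against RFP) and 3.77% (GFP High against GFP Low) were under it. The share of all genes called was 0.0197% or less. Their median log2 fold changes against RFP were 0.00 (GFP High) and -0.03 (GFP Low), and the median between the GFP groups was 0.05. Trp73, a p53 relative of the oocyte, had the smallest unadjusted p of them, in GFP Low against RFP, with 7.004 ± 0.172 against 9.12 ± 0.753 CPM (mean ± SD, n = 3; log2 fold change -0.38, SE 0.20, edgeR adjusted p = 1.000).

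The promoters were searched for the binding letters of these factors, since some of the 9 genes are known targets of others. RefSeq windows of 250 bases upstream of the start (GRCm38.p6) were matched for 8 of the 9 genes, all but Taf4b, and for Zp3. RefSeq starts can differ from the gene spans given above: the Figla window and the second of the Pou5f1 windows lie inside the spans of their genes, and those of Lhx8, Sohlh2, Foxo3 and the first of Pou5f1 reach into them. The E-box form CACCTG, read on either strand, was present in the windows of Nobox, Figla, Sohlh1, Tbpl2 and Zp3, and in 17.2% of all 32851 windows. The NOBOX letters TAATTG, which 7.17% of all windows hold on either strand, were in none of these windows. Nor was the LHX8 form TGATTG, which is in 12.7% of all windows. The octamer core ATGCAAA, bound by POU factors and present in 4.12% of all windows on either strand, was not found in them. The TATA box, searched as TATAAA on the strand of the gene, was also not found, against 7.59% of all windows. The forkhead letters GTAAACA, in 3.17% of all windows, were found in that of Zp3, 242 bases before the start. GC content was 65.2% in the Nobox window, 67.2% in Figla, 64.4% in Sohlh1 and 52.8% in Tbpl2. It ran from 43.6% (Zp3) to 76.4% (Foxo3), and the median over all windows was 52.4%. The shares of all windows were not matched for GC content, so they are not a like comparison. Below are the 140 bases before the start for the most abundant factor, for the least abundant, for Tbpl2 and for Zp3, a classical FIGLA target; capitals mark each E-box (CANNTG, present in 66.2% of all windows), which includes the CACCTG form and its reverse complement CAGGTG, and each line reads 5′ to 3′ on the strand of the gene.
Nobox, chr6:43309555-43309694, minus strand: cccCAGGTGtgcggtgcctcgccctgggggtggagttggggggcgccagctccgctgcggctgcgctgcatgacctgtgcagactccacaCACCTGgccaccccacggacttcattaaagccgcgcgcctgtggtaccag
Sohlh1, chr2:25847249-25847388, minus strand: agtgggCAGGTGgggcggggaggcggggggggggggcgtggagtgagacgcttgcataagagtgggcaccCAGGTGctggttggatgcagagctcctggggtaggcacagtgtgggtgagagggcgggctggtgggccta
Tbpl2, chr2:24096596-24096735, minus strand: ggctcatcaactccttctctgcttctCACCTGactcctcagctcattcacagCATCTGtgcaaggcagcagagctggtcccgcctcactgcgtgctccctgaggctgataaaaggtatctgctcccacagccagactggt
Zp3, chr5:135979965-135980104, plus strand: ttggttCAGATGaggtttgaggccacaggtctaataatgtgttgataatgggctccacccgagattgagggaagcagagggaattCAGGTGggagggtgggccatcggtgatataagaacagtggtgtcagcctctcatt
The CACCTG form began 137 and 50 bases before the start in Nobox, 134 and 70 in Sohlh1, 114 in Tbpl2 and 55 in Zp3. Nobox and Sohlh1 carry 2 such matches each, and a link between these matches and the level of a stored message was not tested. Further E-boxes lay upstream of the bases shown, beginning 181 bases before the start in Zp3. In Sohlh1 they began at 231, 211 and 192 bases, and in Tbpl2 at 236 and 156. A match is a string of letters and not a measured binding site.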

How the data were processed

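RNA-seq libraries of 9 pools of MII oocytes were read on poly-A RNA with random-hexamer priming and paired ends, per the labels' protocols. The submitters' processing notes name fastp, HISAT2 2.0.5, featureCounts 1.5.0-p3, DESeq2 1.20.0 and the build mm10, with no role or order. The authors deposited 3 tables, 1 per pair of groups, each with raw counts per gene in 6 libraries. These counts were joined by gene identifier into 30153 genes by 9 libraries, with 178 genes that a table lacked set to 0. The deposited tables also hold a normalised signal and FPKM per library. They also hold the authors' log2 fold change and p-value, which entered no test. No per-sample column was left unmapped. Of the identifiers, 30134 were in GENCODE M21 (GRCm38), 29332 with equal coordinates.

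Each pair of groups was tested on its 6 libraries with edgeR 4.0.16 in R 4.3.3 (filterByExpr, TMM, quasi-likelihood test, no covariate) with Benjamini-Hochberg adjustment over all genes tested and a threshold of 0.05. The 3-group test used all 9 libraries. Ratios used a prior count of 0.5 and a two-sided exact permutation test, and likeness used log2 CPM with a prior count of 2 over genes at 5 CPM or more. DESeq2 1.42.0, limma-voom (limma 3.58.1), other scalings, filters, lengths, a replicate block and fits without each library were the alternatives. The script was tested on simulated data. Counting limits cover counting error only, as these reads carry no molecular identifiers.

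The members and lists were chosen with earlier results of these data known. From each list the text names the 3 highest genes by CPM per kilobase, the 2 with the smallest unadjusted p and any called gene. For each factor at 5 CPM or more it names the 2 most alike genes, of which 1 is not reported here. Pou5f2 was not matched and is not analysed here, nor were Foxj1, Hba-a1, Hba-a2 and Hbb-bs.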

Additional observations from a re-analysis of the deposited data

How the results depend on the processing

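No factor was called in any alternative, and 322 of 336 fold changes of the factors under alternatives kept their direction. The smallest adjusted p of a factor was 0.384, for Sohlh2 in GFP High against RFP without GFP High 3. Counts of called genes over the whole table, 2 for GFP High and 3 for GFP Low against RFP and 0 between the GFP groups, depended more on the processing: with no filter on low counts they were 16, 34 and 16, with DESeq2 12, 10 and 4, and with limma-voom 1 in each of the first 2. The 3-group count of 2 became 70 with no filter and 1 with limma-voom. Leaving out 1 library at a time gave 0 to 2 genes in GFP High against RFP, 2 to 3 in GFP Low against RFP, 0 to 1 between the GFP groups and 2 to 3 in the 3-group test. The cause was not tested.

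Same-numbered libraries did not stand out as pairs: correlations of same-numbered deviations ran from -0.209 to 0.209. A library correlated best with its own number in 6 of 18 cases. With 3 libraries per group this check is weak, and no label says what a number marks. With the replicate block, 4 genes were called in GFP High against RFP, 3 in GFP Low against RFP and 0 between the GFP groups. Taf4b in GFP High against RFP turned from 0.07 to -0.0048 with the block and to -0.037 with limma-voom.

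Of the 14 reversals, 12 came from leaving out 1 library. Taf4b in GFP High against GFP Low went from 0.20 to -0.16 without GFP High 3. In GFP High against RFP the log2 fold change ranged from -0.032 to 0.24 for Figla, -0.29 to 0.30 for Taf4b and -0.15 to 0.047 for Foxo3. In GFP Low against RFP it ranged from -0.030 to 0.10 for Nobox, -0.30 to 0.0066 for Taf4b, -0.0066 to 0.19 for Foxo3 and -0.015 to 0.75 for Sohlh2. In GFP High against GFP Low it ranged from -2.9e-06 to 0.19 for Nobox, -0.029 to 0.057 for Lhx8, -0.16 to 0.43 for Taf4b and -0.022 to 0.10 for Pou5f1.

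With the principal transcript length, added after the data were seen, Pou5f1 moved from 109.9 to 181.5, Lhx8 from 76.8 to 112.5 and Foxo3 from 107.7 to 119.1 CPM per kilobase. Sohlh1 and Sohlh2 have 0 counts in single libraries, and the cause was not tested.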
